A study of Mus musculus with 4 samples.

Results

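The genes described here are 10 inflammatory genes taken as a set. They include the interleukin-1 cytokines Il1a and Il1b, the cytokines Tnf and Il6, and the chemokines Cxcl1, Cxcl2, Cxcl3 and Cxcl5. The others are the prostaglandin synthase Ptgs2 and the lipopolysaccharide co-receptor Cd14. All 10 genes were chosen by gene symbol and were found in both deposited tables, out of 18220 genes present in either table. Only 6 of the 10 are interleukin-1 genes or neutrophil-attracting chemokines in the strict sense. The set was put together with the digoxin response of natural killer (NK) cells and of fibroblasts in these same tumors known, so the values of those populations are given as a description, without a test.

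Single-cell RNA sequencing (10x Genomics 3′ chemistry) was done on hind-limb sarcoma allografts of mice labelled KrasLSL-G12D/+;Trp53flox/flox on the 129/SvJae background; every group carried these alleles. Mice received vehicle (PBS) or digoxin, a cardiac glycoside that blocks the sodium pump, at 2 mg/kg into the peritoneum every 24 h, and tumors were taken after the dose numbered 4. Each group had 2 mice, and only the digoxin is described as prepared in DMSO before dilution in PBS. Tumors were dissociated with enzymes for 45 min at 37 °C before loading, and no sample without this step was measured. The labels' protocol also mentions plating for culture, and whether the sequenced cells were plated is not stated.

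Interleukin-1 alpha and beta act on the receptor Il1r1 and, through the adaptor Myd88 and the Irak kinases, switch on NF-kB, which drives many of the other genes of the set. Interleukin-1 beta is made as a precursor that caspase-1 cleaves within inflammasomes such as the one built on Nlrp3, so its mRNA does not show how much active cytokine is released. Cxcl1, Cxcl2, Cxcl3 and Cxcl5 bind the receptor Cxcr2 and draw neutrophils into tissue. Ptgs2 makes the precursor of prostaglandin E2, and Cd14 hands lipopolysaccharide to Tlr4.

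The 4 libraries held 31611 cells, 18963 deposited as malignant and 12648 as non-malignant. Median depth per mouse was 46799 to 57658 unique molecular identifiers (UMIs, counted transcript molecules) in malignant cells and 15837 to 16671 in non-malignant cells. Of 31498 distinct barcodes, 113 occurred in more than 1 library, and Scrublet marked 1381 cells (4.37%) as possible doublets. Cells lay in the deposited clusters Macrophage (2418 to 2748 cells per mouse, divided into M1, M2 and a Highly proliferative M2 sub-cluster), T cell, NK, Epithelial, Osteoclasts, Fibroblast, Microglia, Neutrophil (5 to 34 cells), Dendritic, B cell and Unknown. Of these names 2 were not borne out by their markers: the cells named Epithelial had Krt5 at 0 in every mouse and a summed level of 5.93 to 19.3 UMIs per 1000000 UMIs of the cell (CPM) over 4 epithelial markers against 3258 to 3805 over 5 endothelial markers, and the cells named Microglia had Sall1 at 0 and 14.5 to 34.3 over 3 microglial markers against 5699 to 6599 over 3 plasmacytoid markers. Both keep their deposited names here only as labels. Levels are given as the mean over cells of each cell's CPM, one value per mouse. Clusters were made by the authors from these cells, so differences between clusters are described and not tested, and fewer expressing cells and less RNA per cell are not separated by a mean.

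The 4 chemokines are neighbours. In GRCm38, Cxcl5 (chr5:90759360-90761624), Cxcl3 (chr5:90786103-90789600), Cxcl1 (chr5:90891241-90893115) and Cxcl2 (chr5:90903871-90905938) all lie on the plus strand within 147 kb. Il6 is on the same chromosome at chr5:30013114-30019981, Il1a (chr2:129299610-129309972) and Il1b (chr2:129364570-129371139) are neighbours on the minus strand, Tnf is at chr17:35199381-35202007 on the minus strand and Ptgs2 at chr1:150100031-150108227 on the plus strand. Most Cxcl1 UMIs of a tumor lay in malignant cells and most of those of its neighbours Cxcl2 and Cxcl3 in macrophages. The 250 bases before the RefSeq start of each (GRCm38.p6, plus strand, 5′ to 3′) are shown, at chr5:90890995-90891244, chr5:90903649-90903898 and chr5:90785851-90786100. Capitals mark matches, on either strand and overlaps included, to GGG and TTCC with any 3 bases between them, a common form of the site that NF-kB binds.
Cxcl1: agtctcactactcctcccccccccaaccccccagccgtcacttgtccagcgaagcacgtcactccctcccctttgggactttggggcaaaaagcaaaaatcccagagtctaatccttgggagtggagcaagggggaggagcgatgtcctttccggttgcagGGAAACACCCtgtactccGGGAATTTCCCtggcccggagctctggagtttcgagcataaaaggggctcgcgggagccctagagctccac
Cxcl2: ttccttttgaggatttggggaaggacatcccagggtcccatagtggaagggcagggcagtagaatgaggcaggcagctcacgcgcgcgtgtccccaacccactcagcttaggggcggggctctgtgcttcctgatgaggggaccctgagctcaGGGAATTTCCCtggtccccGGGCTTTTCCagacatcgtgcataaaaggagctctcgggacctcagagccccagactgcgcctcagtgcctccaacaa
Cxcl3: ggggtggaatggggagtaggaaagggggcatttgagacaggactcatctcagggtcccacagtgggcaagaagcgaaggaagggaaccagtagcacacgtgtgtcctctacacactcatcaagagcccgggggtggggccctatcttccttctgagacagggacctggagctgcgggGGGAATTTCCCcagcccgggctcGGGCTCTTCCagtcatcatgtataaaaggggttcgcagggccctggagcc
Each of the 3 windows holds the stretch GGGAATTTCCC, in which the motif matches once on each strand, overlapping, at 71 and 70 bases before the start in Cxcl1, 97 and 96 in Cxcl2, and 73 and 72 in Cxcl3. A further match brings each window to 3. Among the 8 members with a RefSeq promoter in the table used, Il6 had the single match GGGATTTTCC at 44 bases before its start, and Il1a, Il1b, Tnf and Ptgs2 had none in this window. Thus 4 of 8 members held the motif, as did 1527 of 32851 promoter windows of the same length (4.65%), and 12 windows (0.0365%) held the 11-base stretch. Of these 4 members, 3 are the neighbouring chemokines that share the stretch. The stretch was read from the windows of the members, which are among the 12, so its rarity is not a test. All matches given here are letter matches only, and binding was not measured.

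Interleukin-1 levels were highest in neutrophils and macrophages, and most interleukin-1 UMIs lay in macrophages. Mean Il1b levels were 4335 to 9931 CPM over the 4 mice in neutrophils, 1280 to 1747 CPM in macrophages and 920 to 1420 CPM in dendritic cells. The neutrophil range lay above the others, while those of macrophages and dendritic cells overlapped. Malignant cells had 17.0 to 32.8 CPM of Il1b. Because macrophages were far more numerous than neutrophils, 85.1% to 88.0% of all Il1b UMIs of a tumor lay in macrophages. Malignant cells held 7.36% to 11.6% and neutrophils 0.728% to 2.33%. Such shares depend on how many cells of each kind were captured and on how many UMIs each cell held. Il1a, whose product is active without cleavage and is also released by damaged cells, was likewise highest in neutrophils and macrophages, at 12.1 to 133 CPM in neutrophils and 12.1 to 50.3 CPM, ranges that overlap. It was near 0 in malignant cells (0.279 to 0.539 CPM).

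**Figure D1:**
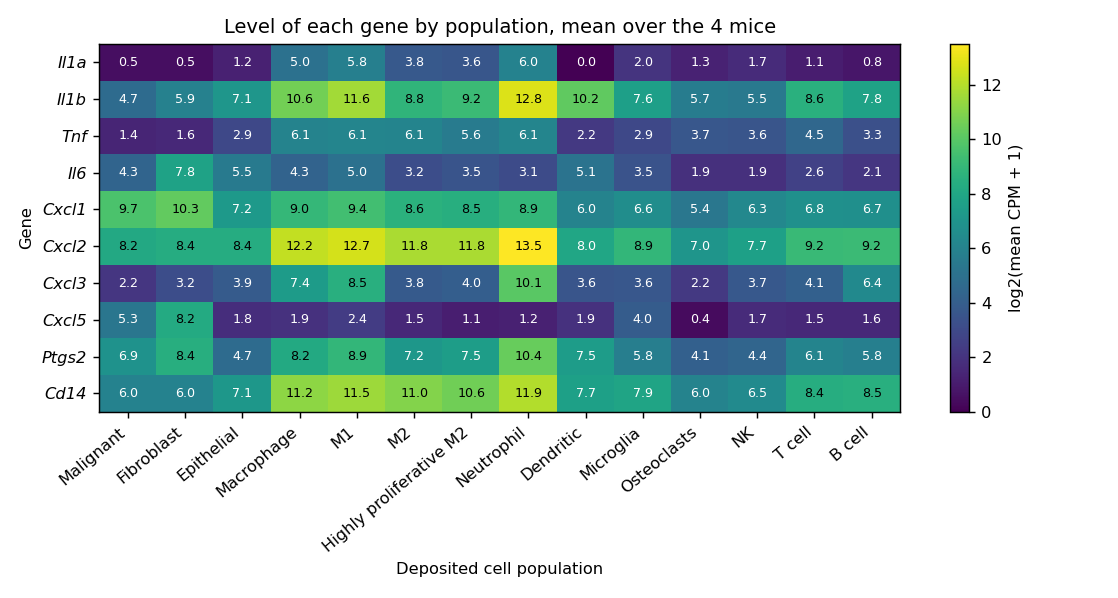
Heat map of the level of each of the 10 genes in each deposited population, as log2(mean CPM + 1) of the mean over the 4 mice; rows are genes, columns are populations, and colour runs from low (dark) to high (yellow). Il1a, Il1b, Tnf, Cxcl2, Cxcl3, Ptgs2 and Cd14 have their highest mean in neutrophils, and Cxcl1, Cxcl5 and Il6 in fibroblasts.

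The macrophage sub-clusters differed in most of the genes. Il1b stood at 3011 and 3067 CPM in M1 macrophages of the vehicle mice and at 3147 and 3375 CPM in those of the digoxin mice, against 338 and 531 CPM, and 471 and 469 CPM, in M2 macrophages. The M1 level was 5.78 to 8.91 times the M2 level in the same mouse. For Cxcl3 this ratio was 6.32 to 44.6, for Il6 3.07 to 4.97, for Ptgs2 2.78 to 3.94 and for Il1a 1.63 to 7.97. Tnf, the other classical cytokine of activated macrophages, did not share this pattern: its ratio was 0.903 to 1.18, above 1 in 2 of 4 mice. Cxcl1, Cxcl2, Cxcl5 and Cd14 were higher in M1 cells of every mouse, by 1.10 to 2.58, 1.3 to 2.29, 1.35 to 4.51 and 1.17 to 1.68 times. The sub-clusters were built from all genes, so these ratios describe the deposited split. Macrophage markers moved the other way: 7 markers summed to 6220 to 9154 CPM in M1 cells and 15898 to 19381 CPM in M2 cells.

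**Figure D2:**
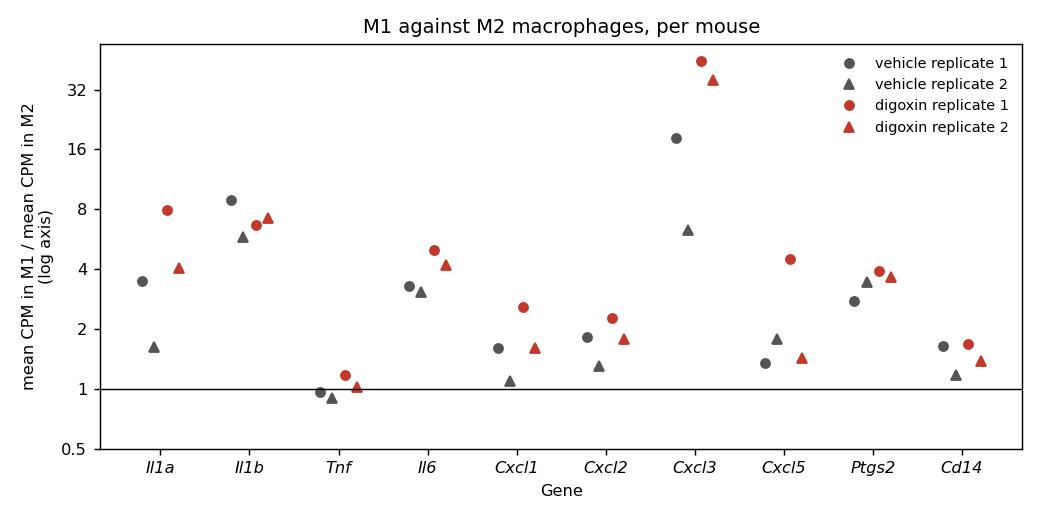
Ratio of the mean CPM in M1 macrophages to that in M2 macrophages for each gene; each point is 1 mouse (grey, vehicle; red, digoxin; circle, replicate 1; triangle, replicate 2), on a log axis with a line at 1. Tnf sits at the line (0.903 to 1.18), Il1b at 5.78 to 8.91 and Cxcl3 at 6.32 to 44.6.

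Within macrophages the genes were unequally spread over cells. The 10% of macrophages with the most Cd14 held 18.7% to 22.2% of its UMIs in a mouse, the lowest share among the 10 genes. For Cxcl2 this share was 28.4% to 31.4%, for Il1b 47.3% to 51.1% and for Cxcl1 50.9% to 64.6%. For Cxcl3, Il1a and Il6 it was 92.9% to 100%, 92.0% to 100% and 93.6% to 100%, and for Cxcl5 100% in every mouse. Low counts alone push such a share up, so it is not comparable between abundant and rare genes. Across single macrophages, as a description within each library, the log-scale levels of Cxcl2 and Cd14 correlated at r = 0.581 to 0.623 over the 4 mice, Cxcl1 and Cxcl2 at 0.457 to 0.552, and Il1b and Ptgs2 at 0.427 to 0.535. Il1b and Tnf were only weakly related (0.0752 to 0.149), and Cxcl5, which few macrophages carried, was related to none of the others above 0.131.

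Cxcl1 and Cxcl5 UMIs, by contrast, lay mostly in malignant cells. The mean Cxcl1 level was 822 and 751 CPM in malignant cells of the vehicle mice and 717 and 976 CPM in those of the digoxin mice, and the groups overlapped. Fibroblasts had 625 to 2050 CPM, neutrophils 113 to 1025 CPM and macrophages 286 to 697 CPM, ranges that overlap. Malignant cells held 87.2% to 95.5% of all Cxcl1 UMIs of a tumor, macrophages 4.17% to 11.4% and fibroblasts 0.166% to 1.1%. Cxcl2, by the same count, was a macrophage transcript: 63.6% to 73.1% of its UMIs lay in macrophages and 23.9% to 35.2% in malignant cells. The neighbours Cxcl3 and Cxcl5 split in the same way, Cxcl3 with 57.6% to 85.2% in macrophages and Cxcl5 with 89.1% to 99.2% in malignant cells. Fibroblast Cxcl5 varied widely, from 19.0 CPM in the vehicle mouse numbered 2 to 452 CPM in the vehicle mouse numbered 1.

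Il6, which signals through Il6ra and Il6st, was highest in fibroblasts (75.3 to 416 CPM) and the malignant cells contributed 67.1% to 93.0% of its UMIs at 14.3 to 23.0 CPM. Ptgs2 was highest in neutrophils (779 to 1930 CPM), and malignant cells, at 87.1 to 142 CPM, held 56.8% to 84.7% of its UMIs. Macrophage Ptgs2, at 153 to 376 CPM, lay above the malignant range, and macrophage Il6, at 5.75 to 29.7 CPM, overlapped it. Malignant cells also held most UMIs of all genes together, 306950639 against 55210976 in non-malignant cells of the vehicle mouse numbered 1. A large malignant share of UMIs is therefore not a high level per cell. Tnf stood at 32.9 to 123 CPM in neutrophils and 49.7 to 71.4 CPM in macrophages, ranges that overlap, and macrophages held 80.4% to 86.9% of its UMIs. Cd14 was carried by 98.1% to 99.2% of macrophages and by every neutrophil, and macrophages held 79.4% to 87.2% of its UMIs. The split of the 10 genes into those counted in macrophages and those counted in malignant cells held in each of the 4 mice.

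**Figure D3:**
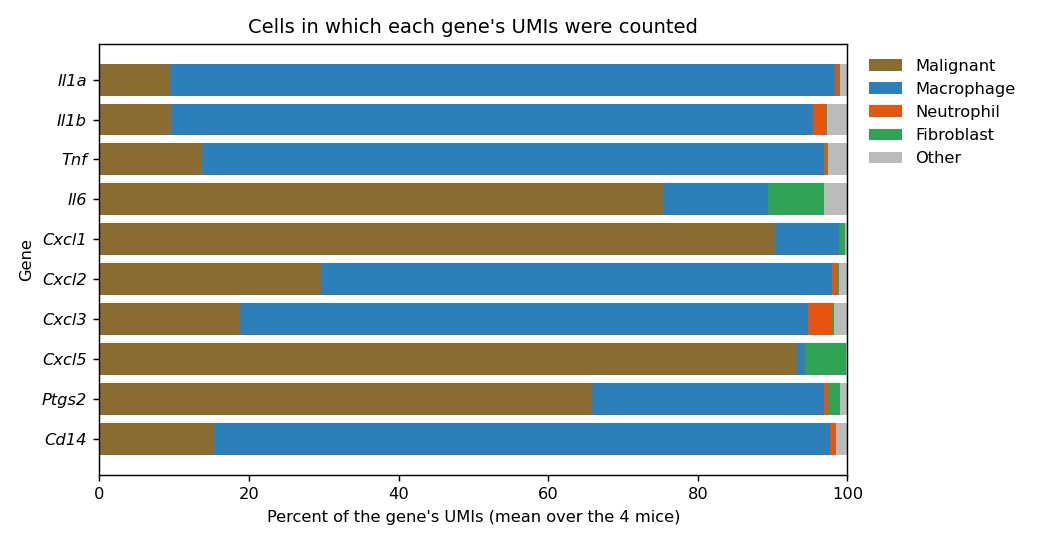
For each gene, the percentage of all its UMIs counted in malignant cells, macrophages, neutrophils, fibroblasts and all other cells of a tumor, as stacked bars that show the mean over the 4 mice. Il1a, Il1b, Tnf, Cxcl2, Cxcl3 and Cd14 are mostly blue (macrophages), and Il6, Cxcl1, Cxcl5 and Ptgs2 mostly brown (malignant cells).

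Some of the low myeloid signal of malignant cells sat in cells that also carried macrophage transcripts. Cells with UMIs of at least 3 of 7 macrophage markers (among them Adgre1, Csf1r, C1qa and Mrc1) made up 26.1% to 36.0% of malignant cells per mouse and held 34.7% to 46.0% of all their UMIs. They held 68.3% to 83.3% of the malignant Il1b UMIs, 82.2% to 83.1% of Tnf, 77.8% to 89.6% of Il1a and 68.0% to 72.3% of Cd14. Of Cxcl1, Il6, Ptgs2 and Cxcl5 they held 34.9% to 45.0%, 26.5% to 37.9%, 29.8% to 41.4% and 32.3% to 43.8%, near their share of all UMIs. Cxcl2 and Cxcl3 lay between, at 50.8% to 52.9% and 49.7% to 65.4%. The marker-carrying cells were also deeper, with a median of 67135 to 80958 UMIs against 41304 to 50716 in the rest, so more of them pass any rule that asks for rare transcripts. The part of these cells in the malignant values was not tested further. The 7 markers were lower in M1 than in M2 macrophages and were not chosen for neutrophils. Cells without 3 of them, here and below, are therefore not shown to be free of M1 or neutrophil transcripts.

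The share of cells with an Il1b UMI was 60.8% to 68.6% of macrophages, 19.5% to 35.9% of malignant cells and 20.2% to 33.5% of T cells, which are not known as an Il1b source, at median depths of 16070 to 17049, 46799 to 57658 and 7244 to 8232 UMIs. After each cell was thinned to 4000 UMIs (12 cells shallower than that were left out, 3 vehicle and 9 digoxin), the shares were 48.6% to 54.5%, 3.29% to 5.30% and 14.4% to 26.7%. The thinned share of malignant cells lay below that of T cells in every mouse, and T cells themselves held most of their Il1b UMIs in cells with macrophage markers, so that no expression by malignant cells is read from it. For Cxcl1 the thinned share was 58.9% to 69.0% of malignant cells against at most 41.5% of T cells.

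By the likeness rule fixed for Il1b, which compares log2(mean CPM + 1) across 12 populations over 6356 genes, the genes outside the set with the most similar pattern were Il1rn, the natural antagonist of the interleukin-1 receptor (Pearson r = 0.968), Ccrl2, a chemokine-binding receptor of myeloid cells (0.954), the predicted genes Gm6377 (0.953) and Gm9733 (0.951), and Mcl1, a survival factor of the Bcl-2 family (0.945). This r is a description; the 12 points share libraries, and neutrophils and macrophages set its range. Mean Il1rn was 215 CPM in macrophages, 489 CPM in neutrophils and 5.14 CPM in malignant cells.

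Of the receptors, Il1r1, which signals for interleukin-1, had 94.6 to 139 CPM in fibroblasts, 6.94 to 8.50 CPM in malignant cells and 0.618 to 1.32 CPM in macrophages. Its decoy Il1r2 had 402 to 803 CPM in neutrophils. Cxcr2, through which the 4 chemokines act, stood at 234 to 446 CPM in neutrophils and at most 1.28 CPM in macrophages.

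With digoxin, most of the 10 genes had higher mean levels in the macrophages of both treated mice, but no gene passed the test. Il1b stood at 1588 and 1280 CPM in the vehicle mice and at 1747 and 1715 CPM in the digoxin mice. The means, 1434 ± 218 and 1731 ± 22.3 (SD, n = 2 each), differed by 0.28 on the log2(CPM + 1) scale (SE 0.14). Cxcl2 stood at 4472 and 3438 CPM against 5552 and 5873 CPM, a log2 difference of 0.54 (SE 0.16). In both genes the digoxin mice lay above the vehicle mice without overlap.

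The widest difference was that of Cxcl3, at 122 and 25.1 CPM with vehicle and 301 and 231 CPM with digoxin (log2 difference 2.23, SE 0.64). Cxcl1 stood at 490 and 286 CPM against 597 and 697 CPM (0.78, SE 0.24), and Cd14 at 2012 and 2147 CPM against 2422 and 3021 CPM (0.38, SE 0.14). The groups did not overlap in any of these 3. Il1a stood at 32.2 and 12.1 CPM against 50.3 and 32.4 CPM (0.99, SE 0.43), so that the upper vehicle mouse and the lower digoxin mouse almost met. Tnf showed the same near contact, at 69.2 and 49.7 CPM against 71.4 and 71.4 CPM (0.28, SE 0.17). Cxcl5 remained under 5 CPM in every mouse.

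Il6, at 24.0 and 5.75 CPM against 29.7 and 15.9 CPM, and Ptgs2, at 351 and 153 CPM against 376 and 301 CPM, overlapped between the groups. Thus 8 of 10 members lay higher in both digoxin mice, where 13.6% of the 13734 genes tested did so. The members were chosen with the NK and fibroblast responses of these same mice known. This count, the median that follows and the counts in the other populations are therefore descriptions and not independent support. The median log2 difference was 0.64 over the members and -0.01 over all genes tested; the member median was 0.34 without the vehicle mouse numbered 2 and 1.07 without the vehicle mouse numbered 1. By limma with Benjamini-Hochberg adjustment, 0 of 10 members and 0 of 13734 genes (0%) passed an adjusted p of 0.05, 555 genes had an unadjusted p under 0.05, edgeR also called 0 genes, and DESeq2 called 20 genes and 0 members. With 2 mice a group, an exact two-sided permutation test of 1 gene cannot give a p below 0.33.

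**Figure D4:**
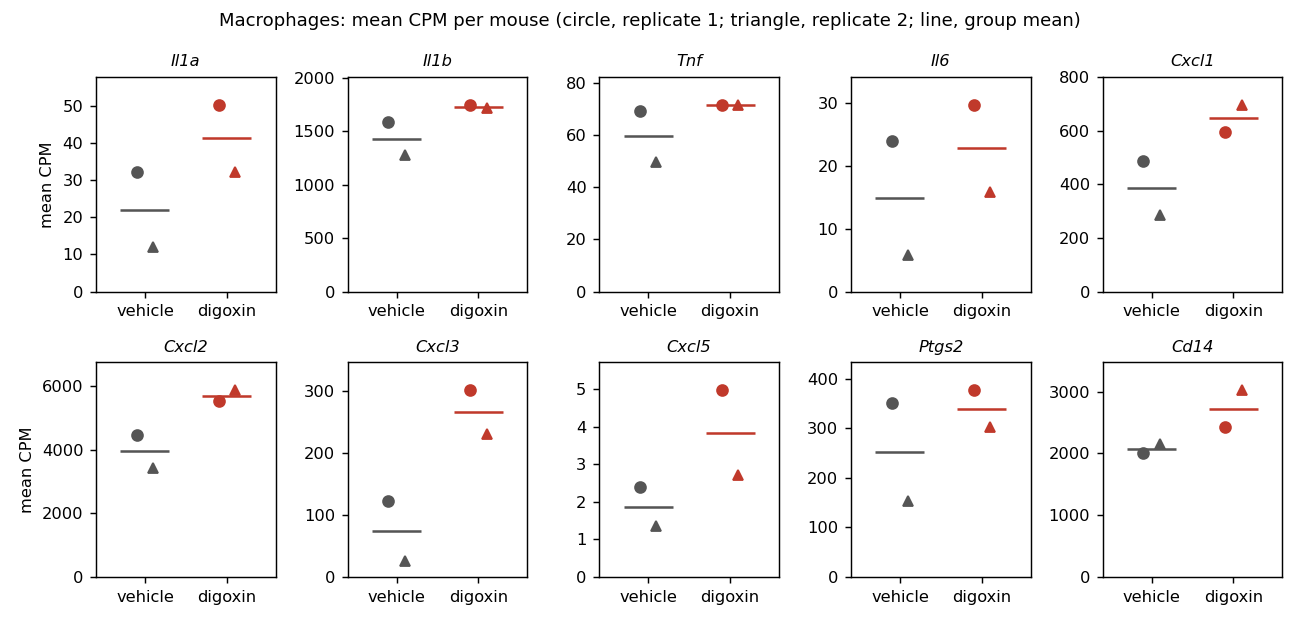
Mean CPM of each gene in macrophages, 1 panel a gene with its own linear axis from 0; points are mice (circle, replicate 1; triangle, replicate 2) and lines are group means. The vehicle mouse numbered 2 is the lowest point for 9 of the 10 genes, and for Il1a and Tnf the vehicle mouse numbered 1 lies beside the lower digoxin mouse.

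The vehicle mouse numbered 2 set much of this picture. It had the lowest macrophage level of 9 of the 10 genes, all but Cd14, and only 29.0% of its macrophages were of the M1 sub-cluster, against 45.3% in the other vehicle mouse and 47.6% and 42.5% in the digoxin mice. Its 7 macrophage markers summed to 15619 CPM in macrophages, against 10998 to 12363 CPM in the other 3 mice. Without it, the log2 difference of Il6 in macrophages was -0.13 and that of Ptgs2 -0.06. Leaving out 1 mouse at a time, the log2 difference ran from 1.11 to 3.34 for Cxcl3 and from 0.32 to 1.66 for Il1a. It ran from 0.12 to 0.44 for Il1b and from 0.04 to 0.51 for Tnf. For Cxcl1 it was 0.40 to 1.17, for Cxcl2 0.35 to 0.73, for Cxcl5 0.39 to 1.08 and for Cd14 0.22 to 0.54. Without the vehicle mouse numbered 1 instead, limma called 138 genes, 5 of them members (Il1a, Cxcl1, Cxcl2, Cxcl3 and Ptgs2); that fit takes the single remaining vehicle mouse to vary like the digoxin mice. The part of the sub-cluster make-up in the macrophage differences was not tested; the levels within each sub-cluster were as follows.

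Within M1 macrophages the same 8 genes were higher in both digoxin mice, where 15.3% of the 12182 genes tested were. Cxcl1 stood at 628 and 304 CPM with vehicle and 881 and 912 CPM with digoxin (log2 difference 1.04, SE 0.30). Cxcl3 stood at 253 and 62.5 CPM against 617 and 521 CPM (2.16, SE 0.55), and Cxcl2 at 5918 and 4098 CPM against 7841 and 7973 CPM (0.68, SE 0.20). Il1b had the smallest log2 difference of the 10 genes, at 3011 and 3067 CPM against 3147 and 3375 CPM (0.10, SE 0.12). Il1a stood at 53.8 and 16.9 CPM against 92.8 and 57.5 CPM, and Tnf at 71.4 and 47.1 CPM against 79.9 and 75.8 CPM. For Il1a and Tnf the upper vehicle mouse thus lay close below the lower digoxin mouse. Cxcl5 was low in M1 cells too, at 2.91 and 2.02 CPM against 8.64 and 3.37 CPM. The median log2 difference over the members was 0.75. It was 0.40 without the vehicle mouse numbered 2 and 1.03 without the vehicle mouse numbered 1. limma called 0 of 10 members and 0 of 12182 genes (0%; 942 at an unadjusted p under 0.05), edgeR 0 genes and DESeq2 42 genes, Cxcl2 among them. Without the vehicle mouse numbered 1, limma called 210 genes, 6 of them members; without the digoxin mouse numbered 1 it called 72 genes with 1 member, and without the digoxin mouse numbered 2, 34 genes with 2 members.

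In M2 macrophages most members overlapped between the groups. Cxcl2, at 3261 and 3154 CPM against 3430 and 4479 CPM, and Cxcl3, at 13.8 and 9.89 CPM against 13.8 and 14.6 CPM, were higher in both digoxin mice, although for Cxcl3 a vehicle and a digoxin mouse met at 13.8 CPM. That is 2 of 10 members, against 15.0% of 12545 genes; limma called 0 genes (0%; 286 at an unadjusted p under 0.05), edgeR 0 and DESeq2 9. In Highly proliferative M2 cells Il1a, Cxcl2 and Cxcl3 were higher in both digoxin mice (3 of 10 members, against 17.4% of 11459 genes), and Il1b lay lower in both, at 596 and 679 CPM with vehicle and 498 and 542 CPM with digoxin (1 of 10 members, where 12.6% of genes lay lower in both). limma called 0 genes there (0%; 451 at an unadjusted p under 0.05), edgeR 0 and DESeq2 16; without the vehicle mouse numbered 1, limma called 267 genes, 1 of them a member. The difference between the sub-clusters in their digoxin response was not tested.

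In malignant cells, the genes of the set with most of their UMIs there overlapped between the groups. This held for Cxcl1 (values above; log2 difference 0.09, SE 0.16), for Ptgs2, at 87.1 and 134 CPM with vehicle and 142 and 99.0 CPM with digoxin (0.13, SE 0.25), and for Il6, at 14.3 and 23.0 CPM against 20.1 and 19.4 CPM (0.11, SE 0.21). Cxcl5 stood at 38.9 and 29.7 CPM against 46.8 and 38.7 CPM and also overlapped. The genes higher in both digoxin mice were Il1b, at 23.0 and 17.0 CPM against 32.8 and 28.5 CPM (0.60, SE 0.16), Cxcl2, at 269 and 206 CPM against 278 and 391 CPM (0.48, SE 0.20), Cxcl3 and Cd14. These are 4 of 10 members, against 12.8% of 17138 genes; limma called 0 members and 0 genes (0%; 585 at an unadjusted p under 0.05), edgeR 0 and DESeq2 45 genes, no member among them, and leaving out any 1 mouse gave 0 to 15 genes and no member. With 1 mouse left out, the log2 difference ran from 0.40 to 0.81 for Il1b and from 0.24 to 0.73 for Cxcl2. For Cxcl3 it was 0.50 to 1.41 and for Cd14 0.14 to 0.26. In malignant cells without 3 macrophage markers, Il1b stood at 11.1 and 4.82 CPM against 19.0 and 17.6 CPM, still without overlap. The malignant cells with at least 3 markers held 36.1% and 34.7% of all malignant UMIs with vehicle. With digoxin they held 38.2% and 46.0%, so their share also lay higher in both digoxin mice. The part of this share in the differences of Il1b, Cxcl2, Cxcl3 and Cd14 was not tested.

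The response of macrophages was set against that of malignant cells in 1 model with a term per mouse. Cxcl3 differed by 1.27 (SE 0.41) and Cxcl1 by 0.69 (SE 0.21) more in macrophages than in malignant cells on the log2(CPM + 1) scale, and Il1b by 0.32 less (macrophage minus malignant, -0.32, SE 0.10). For Il1b the value was -0.06 on CPM of summed UMIs and -0.16 with a pseudocount of 10. Without the vehicle mouse numbered 2 those of Cxcl3 and Cxcl1 were 0.60 and 0.37. With a pseudocount of 10 that of Cxcl3 was 1.71. Malignant Cxcl3 stood at only 1.13 to 6.50 CPM, so its value depends on the added count. The other members had values of 0.95 (Il1a, SE 0.36), 0.70 (Il6, SE 0.76), 0.42 (Cxcl5, SE 0.18) and 0.41 (Ptgs2, SE 0.52). Tnf was at 0.19 (SE 0.13), Cd14 at 0.18 (SE 0.12) and Cxcl2 at 0.06 (SE 0.14). Without the vehicle mouse numbered 2, Il6 was at -0.57, Ptgs2 at -0.50 and Il1a at 0.41, and only Il6 and Ptgs2 changed sign there. With a pseudocount of 10, Il1a was at 0.72 and Cxcl5 at -0.04. Cxcl2 was at -0.15 without the digoxin mouse numbered 1. Malignant Il1a stood at only 0.279 to 0.539 CPM. Most malignant UMIs of Il1b, Il1a, Tnf and Cd14 lay in cells with macrophage markers. Malignant Cxcl2 and Cxcl3 also lay there beyond the share of all UMIs that these cells held, as given above. The values of these genes therefore do not set macrophages against malignant expression alone. limma called 0 of 10 members and 0 of 13532 genes (0%; 549 at an unadjusted p under 0.05). Without the vehicle mouse numbered 1 it called 119 genes, with Ptgs2, Cxcl3 and Cxcl1 as the members. No count test of this difference was run.

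In T cells Il1b stood at 180 and 316 CPM with vehicle and 497 and 528 CPM with digoxin (log2 difference 1.10, SE 0.23). Cxcl2 stood at 200 and 492 CPM against 886 and 729 CPM (1.35, SE 0.32; 0.71 to 2.00 when 1 mouse was left out). All 7 members that could be tested there were higher in both digoxin mice, where 14.3% of 8930 genes were; Il1a, Il6 and Cxcl5 were too low to test. Members pass that filter more easily if they are high in 1 group, so the 7 do not stand for all 10. Cxcl3, among the 7, rested on 3 and 0 UMIs in the vehicle mice and 113 UMIs in the digoxin mouse numbered 1. It is not taken as support in this count or in the calls below. limma with Benjamini-Hochberg adjustment called 0 of 7 members (adjusted p = 0.653 for Il1b) and 0 genes (0%; 382 at an unadjusted p under 0.05), and edgeR and DESeq2 0 genes each. Without the vehicle mouse numbered 1 limma called 198 genes, 5 of them members, without the vehicle mouse numbered 2 it called 83 genes, 6 of them members, and with the replicate number as a block 57 genes, 6 of them members.

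Macrophage transcripts were present in the same T cells. The 7 macrophage markers summed to 435 and 1659 CPM in T cells of the vehicle mice and to 574 and 720 CPM in those of the digoxin mice. Cells with at least 3 of the markers, 9.29% to 21.8% of T cells per mouse, held 15.7% to 41.1% of all T-cell UMIs. These marker-carrying cells held 68.0% to 85.2% of the Il1b UMIs. In the T cells without them, Il1b stood at 75.7 and 78.2 CPM with vehicle and 179 and 204 CPM with digoxin, and Cd14 at 52.6 and 26.9 CPM against 111 and 162 CPM. The part of the marker-carrying cells in the T-cell differences was not tested. As said above, T cells without the markers are not shown to be free of M1 or neutrophil transcripts.

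The members in NK cells are described without a test. Il1b stood at 7.03 and 10.3 CPM with vehicle and at 101 and 55.2 CPM with digoxin. Cxcl2 stood at 99.9 and 54.1 CPM against 347 and 322 CPM, and Cd14 at 34.1 and 22.3 CPM against 116 and 178 CPM. Of 7 members measured well enough, 6 lay higher in both digoxin mice (19.1% of all 9147 genes did), and Tnf overlapped; since this contrast helped to choose the members, nothing is read from that count, nor from the 7 genes (0.0765%) that limma called over all genes. Cxcl3 rested on 2 and 0 UMIs in the vehicle mice and 61 and 105 UMIs in the digoxin mice.

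Macrophage markers summed to 295 and 308 CPM in NK cells of the vehicle mice and 301 and 548 CPM in those of the digoxin mice. Cells with at least 3 of them were 12 of 144 and 5 of 69 NK cells with vehicle, and 15 of 150 and 20 of 141 with digoxin. In the digoxin mice these few cells held 88.5% and 80.3% of 356 and 208 Il1b UMIs, and 94.8% and 87.2% of the Cd14 UMIs. In the vehicle mice they held 35.3% and 100% of only 17 and 29 Il1b UMIs. Their share of Cd14 there was 67.1% and 53.1%, of 82 and 32 UMIs. Of all NK UMIs they held 14.3% and 12.4% with vehicle, and 19.4% and 22.8% with digoxin. They were deeper in the digoxin mice, with a median of 29568 and 20500 UMIs against 11583 and 11052 in the rest. Without them Il1b stood at 5.98 and 0 CPM with vehicle and 26.1 and 23.1 CPM with digoxin, while Cd14 overlapped at 18.2 and 17.1 CPM against 18.1 and 54.1 CPM. Neutrophil markers were low, 2.76 to 16.9 CPM summed over 6 genes.

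**Figure D5:**
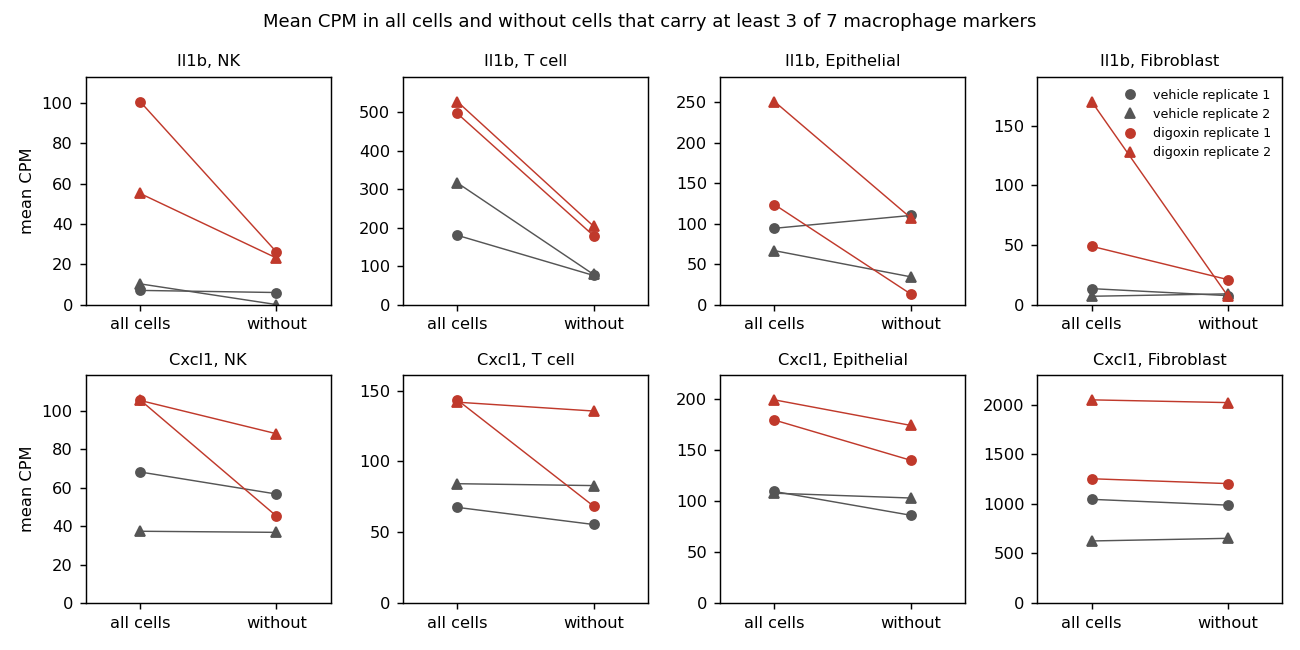
Mean CPM of Il1b (top) and Cxcl1 (bottom) per mouse in NK cells, T cells, the cells named Epithelial and fibroblasts, in all cells (left in each panel) and without cells that carry at least 3 of 7 macrophage markers (right); lines join the values of 1 mouse, grey for vehicle and red for digoxin. On the right, Il1b lies at 75.7 to 204 CPM in T cells and at most 26.1 CPM in NK cells, and Cxcl1 of fibroblasts at 652 to 2022 CPM. The markers are lower in M1 than in M2 macrophages, so cells on the right are not shown to be free of M1 transcripts.

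Among the cells named Epithelial, which carry endothelial markers, Cxcl1 and Cd14 rose by the limma test (Benjamini-Hochberg adjusted p). Cxcl1 stood at 109 and 108 CPM with vehicle and 180 and 199 CPM with digoxin (log2 difference 0.80, SE 0.14, adjusted p = 0.0466). Cd14 stood at 76.1 and 77.5 CPM against 144 and 258 CPM (1.32, SE 0.23, adjusted p = 0.0449). Cxcl3 also passed (3.80, SE 0.67, adjusted p = 0.0423) but rested on 4 and 0 UMIs with vehicle and 95 and 18 UMIs with digoxin, so its fold depends on the added count, and it entered the test through the group in which it is high, so its call is not taken as support. In all, 48 of 10272 genes (0.467%) passed, 46 of them higher, and 7 of 8 members lay higher in both digoxin mice, against 17.8% of genes. Cxcl3 is among the 7 and is not taken as support in that count either. Il1a and Cxcl5 were not tested, and the 8 do not stand for all 10.

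These calls depended on the choices made. All 3 were lost with edgeR (0 genes called), with CPM of summed UMIs (0 genes), with a pseudocount of 0.1, without the filter on low genes and without the digoxin mouse numbered 2. DESeq2, and limma without the digoxin mouse numbered 1, called Il1b, Cxcl2 and Cd14, and limma without cells marked as doublets called Cxcl3 alone. Without the vehicle mouse numbered 1 or 2, limma called 7 and 6 members among 344 and 240 genes. Cells carrying at least 3 macrophage markers were 16.3% to 32.5% of these cells and held 28.5% to 55.4% of their UMIs. Without them, 42 of 9431 genes passed, and 0 of the 5 members still tested. Of the 8 members tested in all cells, Cxcl3 was among those no longer tested. In that remainder Cxcl1 stood at 86.0 and 103 CPM with vehicle and 140 and 174 CPM with digoxin, still without overlap. Cd14 overlapped there, at 58.8 and 14.2 CPM against 26.3 and 79.6 CPM, as did Il1b, at 110 and 34.3 CPM against 13.0 and 107 CPM.

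The members in fibroblasts, 31 to 78 cells per mouse, are likewise described without a test. Cxcl1 stood at 1046 and 625 CPM with vehicle and 1253 and 2050 CPM with digoxin, and Il6 at 201 and 75.3 CPM against 178 and 416 CPM. Cxcl5 stood at 452 and 19.0 CPM against 292 and 450 CPM, and Ptgs2 at 260 and 292 CPM against 217 and 621 CPM; Il6, Cxcl5 and Ptgs2 overlapped between the groups. Il1b, Cxcl1 and Cd14 lay higher in both digoxin mice, 3 of 8 members against 10.1% of 9292 genes. Over all genes, limma called 0 (0%, with 276 at an unadjusted p under 0.05), edgeR 0 and DESeq2 1, and no test of a member is taken from these fits. As this contrast helped to choose the members, nothing is read from these counts. The Il1b UMIs of the digoxin mice lay to 77.8% and 96.0% in fibroblasts with at least 3 macrophage markers. These cells held 36.8% and 33.9% of all fibroblast UMIs in the digoxin mice. Without those cells Il1b overlapped, at 7.49 and 8.98 CPM with vehicle against 20.9 and 7.06 CPM with digoxin. Cxcl1 without them was 987 and 652 CPM against 1204 and 2022 CPM.

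No member was called by limma in the cells named Osteoclasts (0 of 6 tested, with 1 of 7803 genes called, 0.0128%) or Microglia (0 of 5 tested, 0 of 5818 genes, 0%; 278 at an unadjusted p under 0.05, edgeR 0, DESeq2 1). Leaving out the vehicle mouse numbered 1 gave 87 genes with 5 members in the cells named Microglia, the vehicle mouse numbered 2 gave 17 with 1 member, and the digoxin mouse numbered 2 gave 13 with 2. Neutrophils were too few for a test. Their Il1b stood at 9931 and 8320 CPM in 11 and 5 cells of the vehicle mice and at 4335 and 6060 CPM in 34 and 23 cells of the digoxin mice. Neutrophil Ptgs2, at 1539 and 1930 CPM against 779 and 1097 CPM, and Il1a, at 133 and 65.8 CPM against 12.1 and 43.6 CPM, were also lower in both digoxin mice. Cxcl5 rested on 1 UMI in each digoxin mouse and none with vehicle. The other 6 members overlapped: Cxcl2 stood at 13210 and 11212 CPM against 8249 and 13819 CPM, and Cxcl3 at 316 and 2229 CPM against 657 and 1081 CPM. Cxcl1 stood at 1025 and 113 CPM against 331 and 468 CPM, Cd14 at 4281 and 3015 CPM against 3854 and 4562 CPM, Tnf at 81.4 and 32.9 CPM against 37.1 and 123 CPM, and Il6 at 4.47 and 0 CPM against 4.23 and 21.8 CPM. The share of all genes that did not overlap was not computed in so few cells, and nothing is read from these differences.

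The wider pathway, a list of 33 receptors, adaptors, inflammasome parts and prostaglandin genes, gave no call by limma in any population tested. In macrophages 12 of the 31 that could be tested lay higher in both digoxin mice and 1, the prostaglandin receptor Ptger4, lower, where 13.6% and 17.3% of all genes tested did so, with a median log2 difference of 0.11. Among the 12 were Nlrp3, the inflammasome sensor, at a mean of 135 CPM with vehicle and 170 CPM with digoxin, and the interleukin-1 pathway genes Irak2 and Irak3. Il1r1 was also among them, at the low macrophage level given above. In malignant cells 2 of 31, Il1r2 and Cxcr2, lay higher in both digoxin mice and 5 lower (Irak3, Traf6, Ptger2, Ptger4 and Ly96), against 12.8% and 16.5% of all genes tested, with a median of -0.01.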

How the data were processed

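Expression was measured by single-cell RNA sequencing in tumors of 2 vehicle and 2 digoxin mice. Cell names of the vehicle mouse numbered 2 carry a different number. It was numbered by its sample title and the replicate label in the deposited metadata. Values were deposited as the natural log of 1 plus UMIs per 10000 UMIs of the cell, as the values themselves show, and the deposited metadata hold UMI counts and the authors' clusters. The submitters' processing notes name Cell Ranger 3.0.2, Seurat 3.0.2 and mm10, without saying what each was used for. Inverting the scale gave whole UMI counts for 100% of values (tolerance 0.01), and their sums equalled the deposited totals in all cells.

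Per mouse and population, the mean of per-cell CPM was taken, and log2(mean CPM + 1) was tested with limma 3.58.1 (trend, Benjamini-Hochberg over all genes, threshold 0.05) where every mouse had at least 20 cells, after edgeR's filterByExpr on summed UMIs. Alternatives were edgeR 4.0.16 and DESeq2 1.42.0 on summed UMIs, other pseudocounts, no filter and a replicate block. Others left out mice, doublets (Scrublet in scanpy 1.11.5) or cells with macrophage markers. The limma and edgeR fits were also run on simulated summed UMIs of macrophages, NK and malignant cells, with the same spread for every gene. Means of per-cell CPM and DESeq2 were not simulated, so nothing is read from that run. The macrophage marker list is used only as a whole, and not every gene on it is reported here. The members and gene lists were chosen with earlier results of these data known. Members were named because they belong to the set, other genes by the likeness rule or the pathway list. The limma p-values weigh a group difference against a spread between mice that was estimated from 2 mice per group and moderated over all genes. Positions are from GENCODE M21 (GRCm38) and promoters from RefSeq (GRCm38.p6).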

Additional observations from a re-analysis of the deposited data

How the results depend on the processing

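Counts of called genes moved with the tool, the replicate block and the mice left out. DESeq2 called 45 genes in malignant cells, 20 in macrophages, 42 in M1 (1 member), 9 in M2, 16 in Highly proliferative M2, 15 in Epithelial, 2 in Osteoclasts, and 1 each in Fibroblast and Microglia. edgeR called 17 genes in NK, and 0 genes and 0 members in Epithelial and 0 genes in Osteoclasts, as did limma on CPM of summed UMIs for those last 2. With the replicate block 57 genes (6 members) passed in T cells, 23 genes in NK, 85 in Epithelial and 3 in Osteoclasts. Same-numbered mice deviated together at correlations of -0.36 (malignant) to 0.06, over 2 pairs, so the numbers were not taken to pair the mice; the crossed pairing, added after seeing the data, gave 40 genes and 3 members in Microglia. Epithelial gave 18 genes and 0 members with a pseudocount of 0.1, and 6 genes and 0 members without the filter. It gave 27 genes and 1 member without doublets, and 42 genes and 0 members without cells with macrophage markers. Without doublets NK gave 0 genes and Microglia 4, without cells with macrophage markers NK gave 2, and with a pseudocount of 10 Microglia gave 2. Leaving out 1 mouse at a time gave 0 to 15 genes in malignant cells, 0 to 138 (0 to 5 members) in macrophages, 0 to 198 (0 to 6) in T cells, 12 to 107 in NK, 12 to 344 (0 to 7) in Epithelial, 0 to 5 in Osteoclasts, 0 to 414 in Fibroblast, 13 to 87 (0 to 5) in Microglia, 0 to 210 (0 to 6) in M1, 0 to 51 in M2, 0 to 267 (0 to 1) in Highly proliferative M2, and 0 to 119 (0 to 3) for macrophages against malignant cells. The cause of these shifts was not tested.

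Among macrophages, malignant cells, T cells and Epithelial, the log2 difference changed sign without 1 mouse for Il6 (-0.13 to 1.75) and Ptgs2 (-0.059 to 1.13) in macrophages, for Il1a (-0.093 to 0.17, and -0.028 without the digoxin mouse numbered 1), Il6 (-0.21 to 0.44), Tnf (-0.11 to 0.28), Cxcl1 (-0.13 to 0.31) and Ptgs2 (-0.18 to 0.44, and -0.13 without the digoxin mouse numbered 1) in malignant cells, and for Il6 in Epithelial (-0.41 to 0.079, and 0.059 without the vehicle mouse numbered 1). Tnf in malignant cells was also -0.030 with edgeR, -0.025 with DESeq2 and -0.016 on CPM of summed UMIs, and Il1b in Epithelial -0.69 without cells with macrophage markers. Elsewhere, leaving out the vehicle mouse numbered 2 took the members above 0 from 10 to 5 in M2, from 10 to 9 in M1, from 7 to 6 in Highly proliferative M2, from 8 to 6 in Fibroblast and from 5 to 1 in Microglia (median 0.80 to -0.59), and leaving out the digoxin mouse numbered 1 took them from 6 to 4 in Osteoclasts. Cxcl3 rested on at most 4 UMIs per vehicle mouse in T cells, NK and Epithelial.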
